A study of Mus musculus with 3 samples.

Results

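The genes of sterol synthesis, of the sterol regulatory element-binding proteins (SREBP) and of the liver X receptors (LXR) were followed in macrophages of the 4T1 model. The list named 36 genes. For each gene, the probe set of highest average level was taken among those annotated to a single symbol, and the gene was kept where at least 1 array was above 5.3 on the log2 scale. In all, 33 of the 36 genes had such a probe set, and all 33 passed this floor, of 12025 genes that passed it in the whole series. *Acat2*, *Soat1* and *Nr1h2* had none and were not analysed on the arrays. The member nearest to the floor was *Nr1h3*, whose highest value was 6.38. Most values of olfactory, vomeronasal and taste receptor probe sets, which belong to sensory cells, lay at or below this floor (91.7% of the values of 84 probe sets).

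4T1 cells are BALB/c mammary carcinoma cells that spread to the lung. The mTAMs array held RNA of macrophages of the metastatic lung, and the pTAMs array RNA of macrophages of the matched primary tumor, both taken 5 weeks after 4T1 cells had been inoculated. The BMDM array held RNA of macrophages grown in culture from bone marrow of healthy mice. The macrophages of the lung and of the primary tumor were sorted as CD11b+ and F4/80+. Each group was 1 array, so no p-value or SD across samples exists, and the differences below compare 3 arrays. How many mice each array held, and whether a Ly6C gate was used for the arrays, is given by no source used here. Growth in culture, tissue digestion and a tumor in the host differ together between the BMDM and both kinds of TAMs, and cannot be told apart.

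All 9 general macrophage markers on the array were above the floor on each array, with a summed signal of 15.52 (log2) in mTAMs, 15.65 in pTAMs and 15.78 in BMDM. Markers of other cells differed between the arrays. The 10 neutrophil markers summed to 16.30 in mTAMs and 15.09 in pTAMs, against 10.73 in BMDM. The 9 alveolar macrophage markers summed to 13.99 in mTAMs and 11.82 in pTAMs, against 9.0 in BMDM. The 8 epithelial or carcinoma markers summed to 11.15 in mTAMs and 12.06 in pTAMs, against 8.10 in BMDM. The 7 fibroblast markers summed to 12.13 in mTAMs and 9.59 in pTAMs, against 7.93 in BMDM. In populations such as these, fewer cells of a type and less RNA per cell cannot be told apart. The part of these cells in the differences below was not tested.

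Cholesterol is made from acetyl-CoA through mevalonate, farnesyl diphosphate, squalene and lanosterol. When the endoplasmic reticulum is low in sterol, SCAP carries SREBP to the Golgi, where it is cut, and the freed part enters the nucleus and switches on genes of sterol and fatty acid synthesis. INSIG proteins hold SCAP back when sterol is plentiful. LXR act in the opposite situation. They bind oxysterols and switch on genes that move cholesterol out of the cell, which is how macrophages deal with the lipid of the cells they engulf. LXR also switch on *Srebf1*, and through it fatty acid synthesis.

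Sequences upstream of the annotated starts were looked at first, because SREBP and LXR read their targets through short motifs. Promoters of 25 of the 33 members were matched in RefSeq sequences of GRCm38.p6, and some genes had several starts. The 250 bases before each start were searched on both strands for 4 motifs. These were the SRE core CACCCCAC, which is the centre of the classic sterol regulatory element, the E-box CACGTG, the NF-Y box CCAAT (NF-Y is a partner of SREBP at sterol genes) and the DR4 element TGACCNNNNNTNACC. The DR4 element is the kind of repeat that LXR bind with RXR, and these letters were chosen after the *Abca1* promoter had been read. In the sequences printed, matches of different motifs did not overlap, whereas NF-Y boxes on opposite strands can overlap each other.

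The NF-Y box stood in at least 1 promoter of each of the 14 sterol synthesis enzymes that were matched, against 37.5% of 27025 genes. By promoter, it stood in 14 of their 17 promoters (82.4%), against 33.8% of 32851 promoters of all genes. The E-box was found in 3 of these 17 promoters, against 6.02% of all promoters. The SRE core was found in 1 of the 17, that of *Hmgcs1*, against 2.58% of all promoters. Promoters of 4 enzymes are shown for the NF-Y boxes. *Hmgcs1* is the only one of them with the SRE core, and *Hsd17b7* the only one with an E-box. The *Hmgcs1*, *Idi1*, *Msmo1* and *Hsd17b7* sequences are the 200 bases before the start, 5′ to 3′ on the strand of the gene, with the motif matches in capitals. CCAAT on the opposite strand reads ATTGG.
Hmgcs1, chr13:119690151-119690350, plus strand: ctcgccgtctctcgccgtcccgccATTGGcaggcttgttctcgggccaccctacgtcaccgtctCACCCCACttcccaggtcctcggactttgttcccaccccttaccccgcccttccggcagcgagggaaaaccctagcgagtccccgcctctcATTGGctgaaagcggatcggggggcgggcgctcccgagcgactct
Idi1, chr13:8885406-8885605, plus strand: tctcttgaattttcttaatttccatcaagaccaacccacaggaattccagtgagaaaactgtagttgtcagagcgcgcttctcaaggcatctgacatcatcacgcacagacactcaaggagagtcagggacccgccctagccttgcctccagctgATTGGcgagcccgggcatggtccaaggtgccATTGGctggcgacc
Msmo1, chr8:64733579-64733778, minus strand: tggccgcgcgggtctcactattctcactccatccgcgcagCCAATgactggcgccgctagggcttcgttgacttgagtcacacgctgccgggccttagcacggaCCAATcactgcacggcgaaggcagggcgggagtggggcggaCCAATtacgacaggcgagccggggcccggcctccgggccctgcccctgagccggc
Hsd17b7, chr1:169969206-169969405, minus strand: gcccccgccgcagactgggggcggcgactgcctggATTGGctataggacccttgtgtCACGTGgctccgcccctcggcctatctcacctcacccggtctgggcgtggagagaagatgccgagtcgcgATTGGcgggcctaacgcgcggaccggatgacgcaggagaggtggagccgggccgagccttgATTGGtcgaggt

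With these letters, the DR4 element was rare. It stood in 58 promoters of all genes (0.177%) and in 3 of 36 promoters of the members. Those were the promoters of *Abca1*, *Fasn* and 1 of the 3 starts of *Srebf1*. Because the letters were chosen with the *Abca1* promoter known, its match was fixed beforehand, and these shares measure no excess among the members. Repeats of this kind with other letters were not searched. The element began at position −67 from the start of *Abca1*, at −182 from that of *Srebf1* and at −225 from that of *Fasn*. The 3 sequences below are the 240 bases before these starts, shown for this element. Capitals also mark an E-box in the *Abca1* sequence and NF-Y boxes in those of *Srebf1* and *Fasn*, of which 2 overlap in *Fasn*. In the LXR group, which for this count includes *Nr1h2*, the NF-Y box was found in 1 of 8 promoters, that of *Mylip*. A match describes letters in these windows, and binding was not measured.
Abca1, chr4:53159896-53160135, minus strand: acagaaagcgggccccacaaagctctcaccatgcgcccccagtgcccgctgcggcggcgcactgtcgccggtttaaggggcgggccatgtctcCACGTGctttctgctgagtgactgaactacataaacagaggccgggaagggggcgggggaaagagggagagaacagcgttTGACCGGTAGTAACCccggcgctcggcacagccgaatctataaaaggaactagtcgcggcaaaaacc
Srebf1, chr11:60210472-60210711, minus strand: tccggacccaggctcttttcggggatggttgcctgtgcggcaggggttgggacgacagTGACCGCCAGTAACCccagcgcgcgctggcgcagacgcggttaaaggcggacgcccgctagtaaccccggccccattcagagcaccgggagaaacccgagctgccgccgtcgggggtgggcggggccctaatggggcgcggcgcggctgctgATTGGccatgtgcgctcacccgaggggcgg
Fasn, chr11:120824548-120824787, minus strand: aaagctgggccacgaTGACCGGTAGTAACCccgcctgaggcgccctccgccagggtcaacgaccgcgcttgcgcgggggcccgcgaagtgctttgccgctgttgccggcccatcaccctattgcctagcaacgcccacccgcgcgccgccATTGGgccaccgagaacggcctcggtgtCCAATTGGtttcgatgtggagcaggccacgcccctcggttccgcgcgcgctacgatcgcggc

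**Figure D1:**
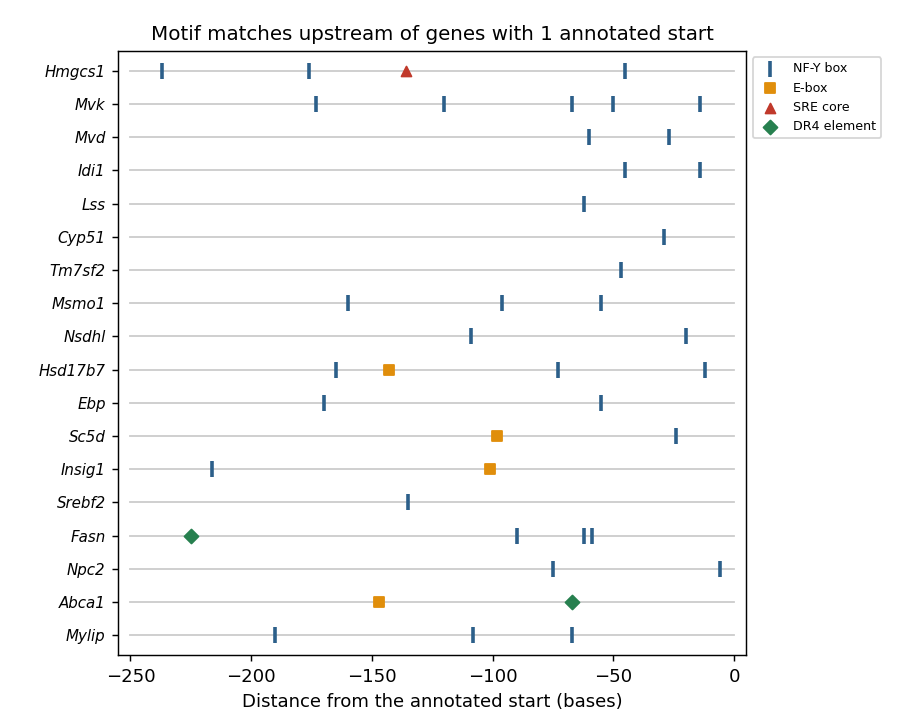
Motif matches in the 250 bases upstream of the 18 members with 1 annotated start, as distance in bases from the start (0). Each mark is the first base of a match on either strand, and NF-Y boxes are present for every sterol synthesis enzyme drawn, from *Hmgcs1* to *Sc5d*, whereas the DR4 element is present for *Fasn* and *Abca1*.

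Among all 33 members, 5 were 2-fold or more above BMDM in mTAMs (11.5% of 11945 genes were) and 5 were 2-fold or more below it (14.4% of all genes). In pTAMs against BMDM, 6 members were 2-fold or more higher (8.78% of 11859 genes) and 2 were 2-fold or more lower (7.5%). In mTAMs against pTAMs, 1 was higher (5.36% of 11801 genes) and 1 lower (2.58%). The share of members that were lower was thus close to that of all genes in each comparison, and so was that of members that were higher in mTAMs against pTAMs. The share that was higher was only slightly above that of all genes in mTAMs against BMDM, and further above it in pTAMs against BMDM. By role, the genes called higher than in BMDM were LXR targets and stearoyl-CoA desaturases. Those called lower, about as common as among all genes, were sterol synthesis enzymes and *Stard4*. Both comparisons with BMDM use the same BMDM array, so a deviation of that array enters both.

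**Figure D2:**
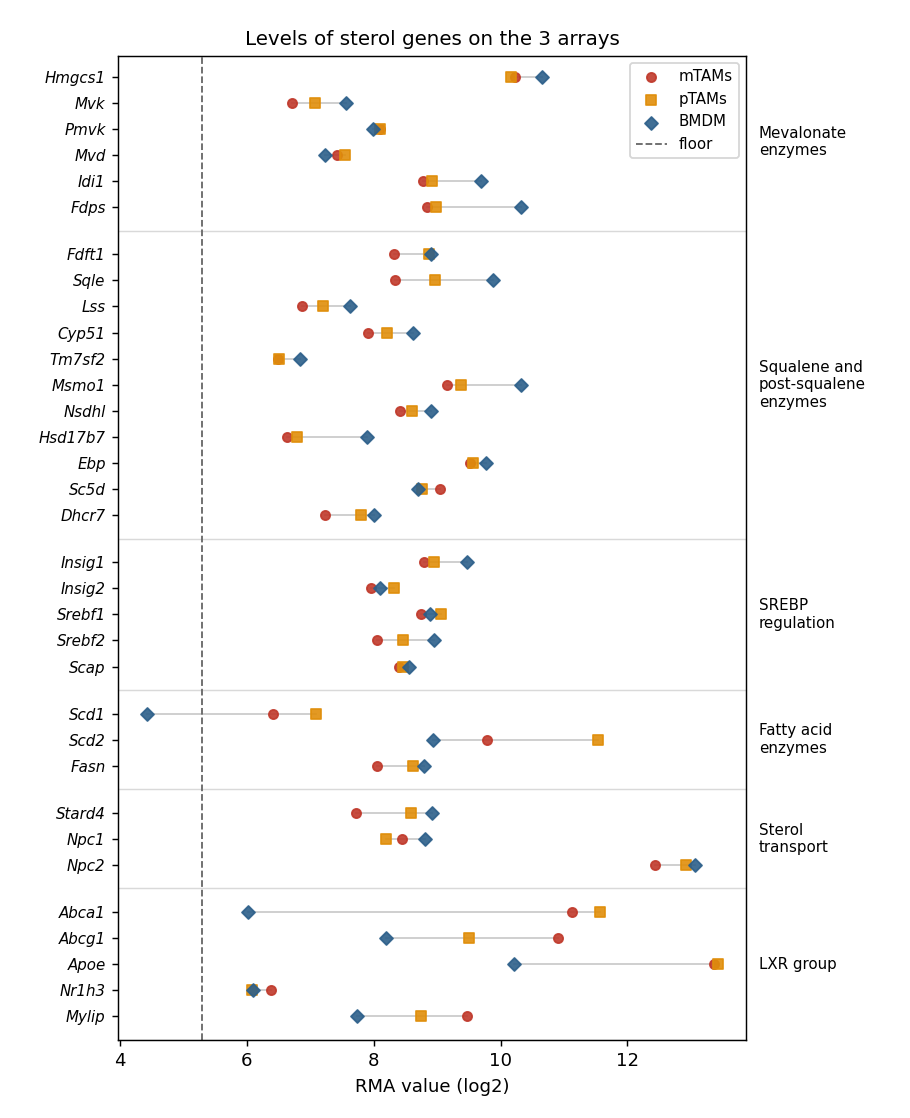
RMA values (log2) of the 33 members on the mTAMs (circles), pTAMs (squares) and BMDM (diamonds) arrays, 1 array each, grouped by role. The dashed line is the floor of 5.3, under which only the BMDM value of *Scd1* (4.43) lies.

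Sterol synthesis enzymes were mostly lower in both kinds of TAMs than in cultured macrophages. In mTAMs, 14 of the 17 enzymes were below BMDM, with a median log2 difference of −0.71, against −0.11 over all genes, of which 56.6% were below BMDM. In pTAMs, 14 of 17 were below BMDM, with a median of −0.40, against −0.05 over all genes, of which 54.3% were below. Genes equal to BMDM count in these shares, 1251 in mTAMs and 1321 in pTAMs. With a floor 1 log2 unit higher, all genes had medians of −0.22 in mTAMs and −0.11 in pTAMs. The enzyme medians stayed at −0.71 and −0.40. At the 2-fold threshold, 4 of 17 were lower in mTAMs, against 14.4% of all genes, and 2 of 17 in pTAMs, against 7.5%, so the calls were few and not far from the general share. None was higher. Of 30 probe sets of these enzymes that were above the floor and varied between arrays, 26 were lower in mTAMs than in BMDM and 26 were lower in pTAMs than in BMDM. With cyclic loess normalization the medians were −0.55 in mTAMs and −0.33 in pTAMs, while those of all genes were at 0.00.

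The enzymes of the mevalonate part make the isoprene units from which squalene, and also the lipid anchors of small GTPases, are built. *Fdps*, farnesyl diphosphate synthase, had the largest difference among them. Its value was 8.85 in mTAMs and 8.99 in pTAMs, against 10.32 in BMDM, which is 2.77-fold lower in mTAMs and 2.51-fold lower in pTAMs. The values of the TAMs arrays were close to each other. A second probe set of *Fdps* was below the floor on all arrays, and averaging both gave −0.75 in mTAMs and −0.67 in pTAMs. *Idi1*, the isomerase one step earlier, came next with 8.78 in mTAMs and 8.92 in pTAMs, against 9.69 in BMDM, just under 2-fold lower in both. Its second probe set gave differences of −1.11 in mTAMs and −0.94 in pTAMs.

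*Hmgcs1*, which makes HMG-CoA, was at 10.23 in mTAMs and 10.17 in pTAMs, against 10.66 in BMDM. It was read from a probe set whose name marks it as shared with other transcripts, and 3 further probe sets above the floor also gave negative differences, from −0.60 to −0.26 in mTAMs and from −0.71 to −0.46 in pTAMs. Mevalonate kinase, *Mvk*, was at 6.71 in mTAMs and 7.08 in pTAMs, against 7.57 in BMDM. The kinase and the decarboxylase that follow it differed little. *Pmvk* was at 8.10 in mTAMs and 8.10 in pTAMs, against 7.99 in BMDM, and *Mvd* at 7.42 in mTAMs and 7.55 in pTAMs, against 7.23 in BMDM. The 6 mevalonate enzymes had a median difference of −0.65 in mTAMs and −0.49 in pTAMs.

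From squalene on, 10 of 11 enzymes were lower in mTAMs than in BMDM and 10 of 11 lower in pTAMs than in BMDM, with medians of −0.71 and −0.33. *Sqle*, squalene epoxidase, is a control point of this branch. Its value was 8.34 in mTAMs and 8.97 in pTAMs, against 9.88 in BMDM. The 3 arrays were thus apart from each other, with a 2.91-fold lower value in mTAMs and a 1.88-fold lower one in pTAMs than in BMDM. Squalene synthase, *Fdft1*, one step earlier, was at 8.33 in mTAMs and 8.87 in pTAMs, against 8.90 in BMDM. Only mTAMs stood apart here on the probe set used, whereas a second one gave −0.72 in mTAMs and −0.34 in pTAMs. Lanosterol synthase, *Lss*, was at 6.87 in mTAMs and 7.20 in pTAMs, against 7.63 in BMDM. *Fdft1* and *Lss* were read from probe sets marked as shared.

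*Cyp51*, *Msmo1*, *Nsdhl* and *Hsd17b7* remove methyl groups from lanosterol. *Msmo1*, the methyl sterol oxidase, was at 9.16 in mTAMs and 9.38 in pTAMs, against 10.33 in BMDM, 2.25-fold lower in mTAMs and 1.93-fold lower in pTAMs. It lay near the threshold, at −0.96 in mTAMs with cyclic loess normalization and at −1.02 in pTAMs after median-centering, and a second probe set was below the floor on all arrays. *Hsd17b7*, the ketoreductase of this complex, was at 6.64 in mTAMs and 6.80 in pTAMs, against 7.90 in BMDM. That is 2.39-fold lower in mTAMs and 2.14-fold lower in pTAMs, on a probe set marked as shared. Its 2 other probe sets above the floor gave −0.64 and −1.0 in mTAMs and −0.64 and −0.80 in pTAMs. *Cyp51* was at 7.91 in mTAMs and 8.22 in pTAMs, against 8.62 in BMDM, and *Nsdhl* at 8.42 in mTAMs and 8.61 in pTAMs, against 8.91 in BMDM. All 4 were in the same order, mTAMs below pTAMs below BMDM.

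None of the enzymes of the last steps was 2-fold different. *Dhcr7*, the reductase that yields cholesterol, was at 7.23 in mTAMs and 7.81 in pTAMs, against 8.0 in BMDM, so that mTAMs stood apart with a difference of −0.77. The sterol isomerase *Ebp* was at 9.52 in mTAMs and 9.56 in pTAMs, against 9.77 in BMDM, and the sterol reductase *Tm7sf2* at 6.49 in mTAMs and 6.51 in pTAMs, against 6.84 in BMDM. The desaturase *Sc5d* was the exception. Its probe set of highest level was at 9.04 in mTAMs and 8.76 in pTAMs, against 8.70 in BMDM, while its 2 other probe sets gave −0.60 and 0.00 in mTAMs and −0.39 and −0.21 in pTAMs. The sign of *Sc5d* and that of *Fdft1* in pTAMs against BMDM depended on the scaling.

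Dividing cells need sterol for new membrane, and cell cycle genes were also lower in both kinds of TAMs than in BMDM. All 12 cell cycle genes on the array were 2-fold or more below BMDM in mTAMs, with a median of −2.10, and all 12 in pTAMs, with a median of −2.19. They summed to 12.96 in mTAMs and 13.09 in pTAMs, against 14.85 in BMDM. Their part in the lower sterol enzymes was not tested.

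**Figure D3:**
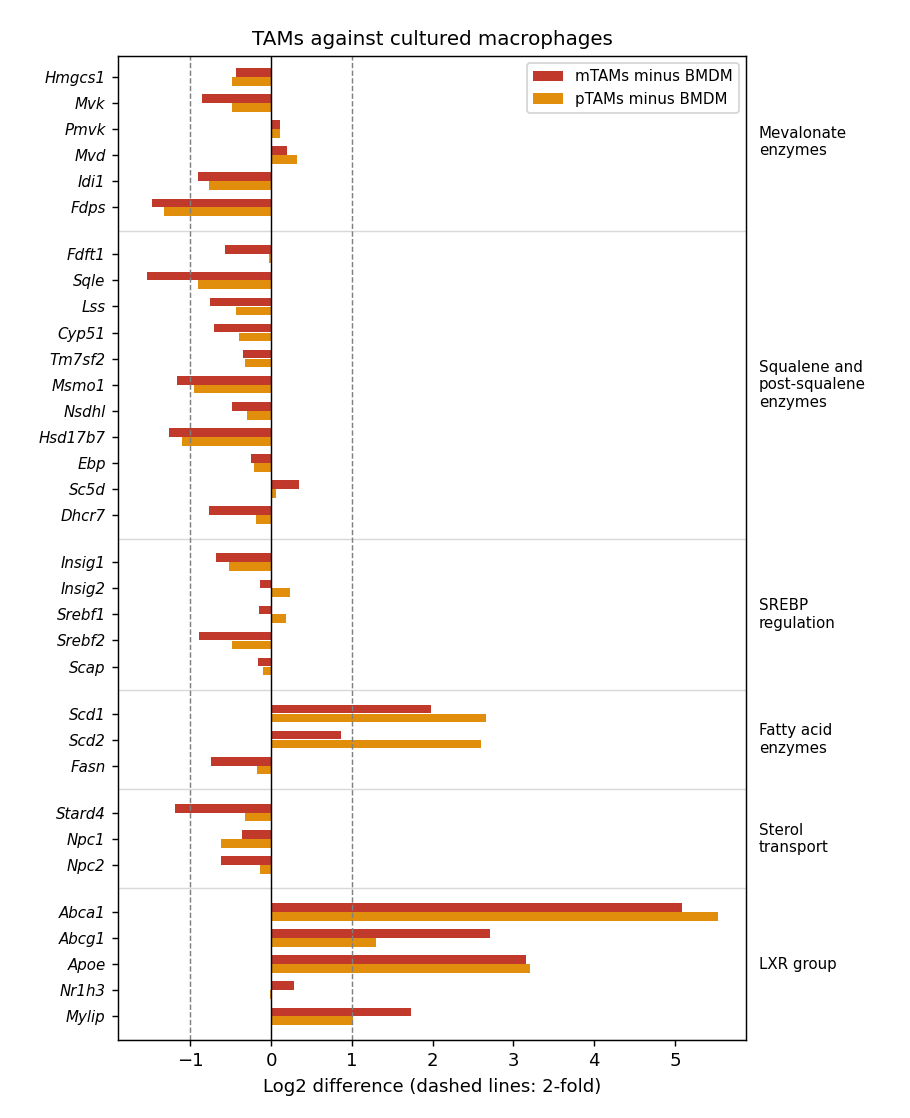
Log2 difference of each member from the BMDM array, for mTAMs (upper bar of each pair) and pTAMs (lower bar), grouped by role, with dashed lines at a 2-fold difference. Bars of sterol synthesis enzymes mostly point left, down to −1.54 for *Sqle* in mTAMs, and those of 4 of the 5 LXR group genes point right in each kind of TAMs beyond the line, up to 5.53 for *Abca1* in pTAMs. The *Scd1* bars are measured from a BMDM value below the floor.

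The regulators of SREBP differed less than the enzymes. None of 5 was 2-fold different in any comparison, with a median of −0.16 in mTAMs and −0.10 in pTAMs against BMDM. Over all genes, the medians were −0.11 and −0.05. Against BMDM, 11.5% of all genes were 2-fold or more higher and 14.4% lower in mTAMs, and 8.78% and 7.5% in pTAMs. In mTAMs against pTAMs these shares were 5.36% and 2.58%. The regulators thus lay near genes in general. *Insig1* is itself a target of SREBP. It was at 8.80 in mTAMs and 8.96 in pTAMs, against 9.48 in BMDM, differences of −0.68 and −0.52. *Srebf2* encodes the SREBP that acts mainly on sterol genes. Its value was 8.06 in mTAMs and 8.47 in pTAMs, against 8.95 in BMDM, and its second probe set gave −0.47 in each. *Srebf1*, which acts more on fatty acid genes, was at 8.74 in mTAMs and 9.07 in pTAMs, against 8.89 in BMDM. Whether its 1 probe set separates transcripts of its 3 starts was not tested. *Insig2* was at 7.96 in mTAMs and 8.33 in pTAMs, against 8.10 in BMDM, and its 2 other probe sets gave −0.71 and −0.52 in mTAMs and −0.07 and 0.12 in pTAMs. *Scap* was at 8.40 in mTAMs and 8.46 in pTAMs, against 8.56 in BMDM. On the probe sets used, the signs of *Insig2*, *Srebf1* and *Scap* in mTAMs against BMDM turned with cyclic loess normalization.

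The LXR group went the other way. In mTAMs, 4 of 5 genes were 2-fold or more above BMDM, with a median of 2.71, and in pTAMs 4 of 5 were, with a median of 1.30, against 11.5% and 8.78% of all genes. *Abca1* pumps cholesterol onto lipid-poor apolipoproteins. Its value was 11.12 in mTAMs and 11.56 in pTAMs, against 6.03 in BMDM, 34.1-fold and 46.2-fold higher. Both kinds of TAMs were far from BMDM. The difference of mTAMs from pTAMs was −0.44 on this probe set, and −0.75 and −0.68 on the others. The BMDM value was near the floor, and on the 2 other probe sets of *Abca1* BMDM lay below it. Against the floor, these gave log2 differences of at least 2.43 and 1.52 in mTAMs and of at least 3.18 and 2.20 in pTAMs.

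*Apoe*, which encodes an apolipoprotein that macrophages secrete and that accepts cholesterol, was at 13.36 in mTAMs and 13.42 in pTAMs, against 10.21 in BMDM. This was 8.88-fold higher in mTAMs and 9.25-fold higher in pTAMs. *Abcg1*, which passes cholesterol to mature lipoprotein particles, differed between all 3 arrays. It was at 10.91 in mTAMs and 9.50 in pTAMs, against 8.20 in BMDM, 6.54-fold and 2.46-fold higher. Its second probe set was at 6.95 in mTAMs and 5.94 in pTAMs, against 5.43 in BMDM, so that the order held while the difference of pTAMs from BMDM was 0.51, or 0.91 on average over both.

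*Mylip* encodes a ubiquitin ligase, also called IDOL, that marks lipoprotein receptors for breakdown. Its value was 9.47 in mTAMs and 8.75 in pTAMs, against 7.74 in BMDM. It was 3.32-fold higher in mTAMs, and at the threshold in pTAMs with a difference of 1.01, which was 0.94 after median-centering. *Nr1h3*, which encodes LXRα itself, was the gene of the group that was not 2-fold different. It was at 6.38 in mTAMs and 6.08 in pTAMs, against 6.10 in BMDM. Of 8 probe sets of the group, 8 were higher in mTAMs than in BMDM and 7 higher in pTAMs than in BMDM. Neutrophil markers, of which 10 of 10 were 2-fold or more above BMDM in mTAMs and 10 of 10 in pTAMs, were higher on the same arrays. The part of such cells in the LXR group was not tested.

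The 3 fatty acid enzymes did not share a direction. The stearoyl-CoA desaturases make monounsaturated fatty acids, which are used to esterify cholesterol. *Scd2* was at 9.79 in mTAMs and 11.53 in pTAMs, against 8.93 in BMDM. It was 1.82-fold higher in mTAMs, and 6.06-fold higher in pTAMs, which stood apart from both other arrays. Its 2 other probe sets gave differences of 0.94 and 0.48 in mTAMs and of 2.55 and 1.97 in pTAMs. Cyclic loess normalization put mTAMs past the threshold, at 1.07. *Scd1* was at 6.41 in mTAMs and 7.09 in pTAMs, against 4.43 in BMDM, which is below the floor. Against the floor this was at least 2.16-fold higher in mTAMs and at least 3.46-fold higher in pTAMs. A second probe set of *Scd1* was below the floor on all arrays. Fatty acid synthase, *Fasn*, was at 8.05 in mTAMs and 8.62 in pTAMs, against 8.79 in BMDM, so that mTAMs stood apart.

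Adipocytes and carcinoma cells also express these desaturases. Of 6 adipocyte markers on the array, 4 were below the floor on all arrays, *Adipoq* and *Lep* among them. The other 2 were highest in mTAMs, with *Cidec* at 5.87 in mTAMs and 3.12 in pTAMs, against 3.34 in BMDM, and *Retn* at 8.07 in mTAMs and 7.05 in pTAMs, against 6.92 in BMDM. The 6 markers summed to 8.65 in mTAMs and 7.75 in pTAMs, against 7.68 in BMDM. Epithelial or carcinoma markers were highest in pTAMs, as *Scd2* was. *Krt8* was at 9.57 in mTAMs and 10.36 in pTAMs, against 5.34 in BMDM, and 5 of 6 compared markers in mTAMs and 6 of 7 in pTAMs were 2-fold or more above BMDM. The only one of the 8 below the floor on every array was *Cldn7*. Their part in the *Scd1* and *Scd2* values was not tested.

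All 3 transport genes were below BMDM in mTAMs and in pTAMs, as were 56.6% and 54.3% of all genes. *Stard4*, a cytosolic sterol carrier under SREBP control, was at 7.73 in mTAMs and 8.59 in pTAMs, against 8.92 in BMDM. It was 2.28-fold lower in mTAMs and 1.26-fold lower in pTAMs, and its 2 other probe sets gave −0.80 and −0.72 in mTAMs and −0.07 and −0.58 in pTAMs, so that the average of the 3 was −0.90 in mTAMs. *Npc1* and *Npc2* release cholesterol from lysosomes. *Npc2* was at 12.44 in mTAMs and 12.92 in pTAMs, against 13.06 in BMDM. Its other probe sets gave −1.11, −0.53 and 0.11 in mTAMs and −0.37, −0.09 and 0.16 in pTAMs, the last of each near the floor. *Npc1* was at 8.45 in mTAMs and 8.19 in pTAMs, against 8.81 in BMDM.

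Between the kinds of TAMs, differences were smaller. Of the 33 members, 26 were lower in mTAMs than in pTAMs, 6 were higher and 1 was equal, with a median of −0.19. Over all 11801 genes compared, the median was −0.06, with 6386 (54.1%) lower, 3985 higher and 1430 equal. With a floor 1 log2 unit higher, the medians were −0.19 for the members and −0.12 for all genes. With cyclic loess normalization, 22 members were lower and 11 higher, with a median of −0.09. Only *Abcg1* was above pTAMs by 2-fold or more, 2.66-fold, and only *Scd2* below by 2-fold or more, 3.34-fold. The second probe set of *Abcg1* gave a difference of 1.01, and the 2 others of *Scd2* gave −1.61 and −1.49. These 2 genes thus separated the TAMs arrays on each of their probe sets above the floor.

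Other members followed at a distance. The difference of mTAMs from pTAMs was −0.86 for *Stard4*, −0.68 for *Scd1*, −0.63 for *Sqle*, −0.58 for *Dhcr7* and −0.57 for *Fasn*. That of *Mylip* was 0.72. The 17 sterol synthesis enzymes had a median of −0.16, with 14 lower, 2 higher and 1 equal, and no 2-fold difference. All 5 SREBP regulators were lower, from −0.41 for *Srebf2* to −0.06 for *Scap*, and the sign of *Scap* turned with cyclic loess normalization. In the LXR group the difference was −0.44 for *Abca1*, and −0.75 and −0.68 on its other probe sets. That of *Apoe* was −0.06, and its sign depended on the scaling. For scale, the SD between probe sets of the same gene was 0.28 in this comparison, 0.52 for mTAMs against BMDM and 0.43 for pTAMs against BMDM. Spread between animals, sorts and arrays is not part of it.

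**Figure D4:**
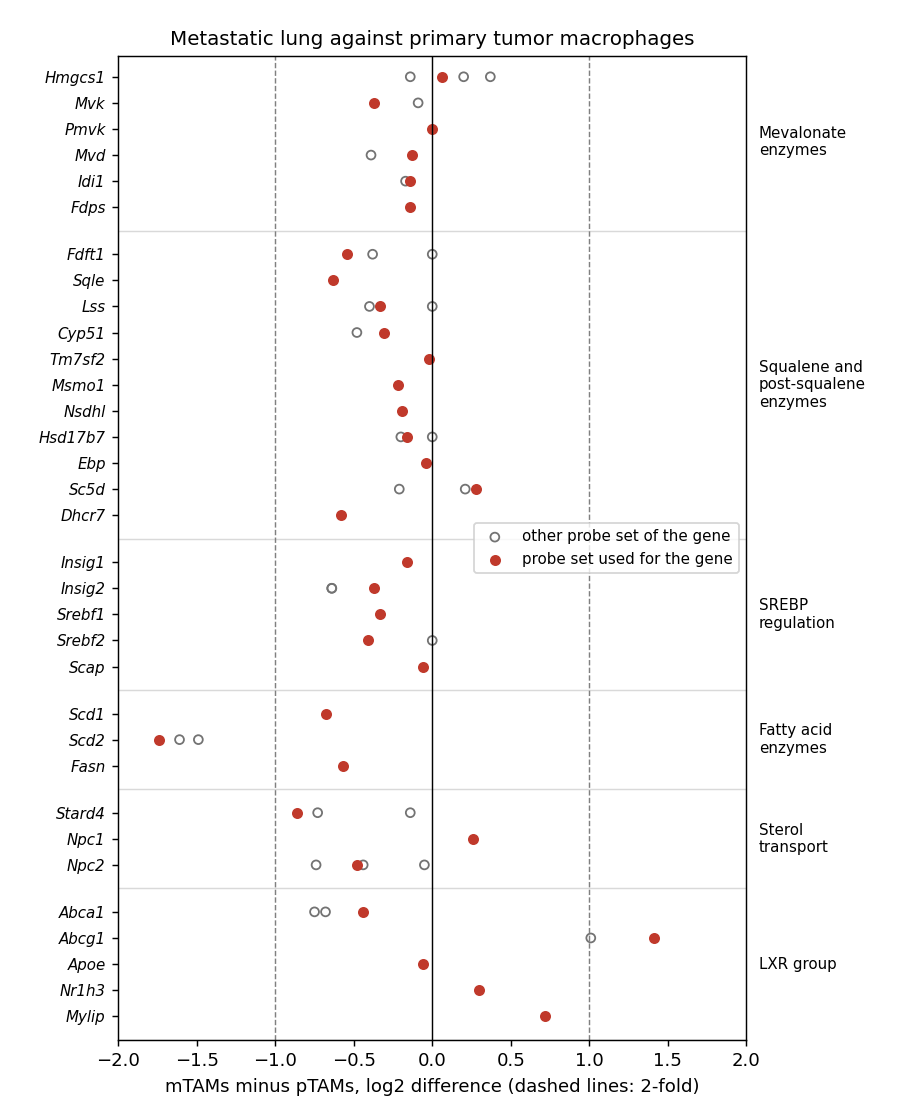
Log2 difference of mTAMs minus pTAMs for the probe set used for each member (filled) and for its other probe sets above the floor (open), with dashed lines at a 2-fold difference. *Abcg1* (1.41 and 1.01) and *Scd2* (−1.74, −1.61 and −1.49) lie at or beyond the lines with all their points, and other members lie between them.

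Alveolar macrophages, which are rich in surfactant lipid, reside in the lung. Of their 9 markers compared, 8 were 2-fold or more above pTAMs in mTAMs. *Siglecf* was at 8.91 in mTAMs and 4.57 in pTAMs, and *Car4* at 9.76 in mTAMs and 7.07 in pTAMs. Of 10 neutrophil markers, 8 were also above pTAMs by that much. The epithelial or carcinoma markers had 2 of 7 that were 2-fold or more lower in mTAMs and none that was higher. Lung alveolar epithelium markers went the other way, and the 7 on the array summed to 12.30 in mTAMs and 8.32 in pTAMs, against 8.22 in BMDM. Most of that sum was *Scgb1a1*, a secretory cell gene of the airways, at 12.17 in mTAMs and 4.21 in pTAMs, against 4.12 in BMDM. The part of these cells in the *Abcg1* and *Scd2* differences was not tested. Cell cycle genes did not separate the TAMs arrays at this threshold, with 0 of 12 different by 2-fold.

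Other genes of the pathways were described by counts. Of 11 further genes of sterol synthesis and SREBP processing, 1 was 2-fold or more above and 2 below BMDM in mTAMs, and 1 was below it in pTAMs, with medians of 0.00 and −0.15. These counts were near the shares of all genes (11.5% higher and 14.4% lower in mTAMs, 8.78% and 7.5% in pTAMs). *Tmem97*, a sterol-regulated membrane protein, was at 6.94 in mTAMs and 7.52 in pTAMs, against 8.73 in BMDM. *Mbtps2*, the second protease that frees SREBP, was at 8.39 in mTAMs and 8.90 in pTAMs, against 9.53 in BMDM. The exception was *Lbr*, a nuclear envelope protein with sterol reductase activity, at 12.25 in mTAMs and 10.75 in pTAMs, against 10.96 in BMDM. *Lbr* was the 1 gene of this list that differed by 2-fold between mTAMs and pTAMs.

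Of 11 further fatty acid genes, none was 2-fold or more above and 4 were below BMDM in mTAMs, while 1 was above and 3 were below in pTAMs, with medians of −0.77 and −0.44. Over all genes, 11.5% were higher and 14.4% lower in mTAMs, with a median of −0.11, and 8.78% were higher and 7.5% lower in pTAMs, with a median of −0.05. ATP citrate lyase, *Acly*, which supplies acetyl-CoA, was at 11.22 in mTAMs and 12.06 in pTAMs, against 10.58 in BMDM. Like *Scd2*, it was highest in pTAMs. Malic enzyme, *Me1*, which supplies NADPH, was at 5.89 in mTAMs and 5.79 in pTAMs, against 8.20 in BMDM. *Mid1ip1*, an activator of acetyl-CoA carboxylase, was at 9.23 in mTAMs and 8.56 in pTAMs, against 10.28 in BMDM. The desaturases of polyunsaturated fatty acids had their lowest values in mTAMs. *Fads1* was at 8.26 in mTAMs and 9.43 in pTAMs, against 9.95 in BMDM, and *Fads2* at 6.18 in mTAMs and 6.66 in pTAMs, against 7.29 in BMDM. *Fads1* was the 1 gene of this list that differed by 2-fold between mTAMs and pTAMs. *Acss2*, which makes acetyl-CoA from acetate, was at 7.43 in mTAMs and 6.71 in pTAMs, against 7.77 in BMDM.

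Of 13 further LXR partners, targets and oxysterol enzymes, 1 was 2-fold or more above and 2 below BMDM in mTAMs, and 2 were above and 2 below in pTAMs, with medians of 0.19 and 0.00. These counts, too, were near the shares of all genes (11.5% higher and 14.4% lower in mTAMs, 8.78% and 7.5% in pTAMs). *Pltp*, a phospholipid transfer protein and LXR target, was at 10.29 in mTAMs and 9.76 in pTAMs, against 8.72 in BMDM. *Cyp27a1*, which makes an oxysterol that binds LXR, was at 8.04 in mTAMs and 8.54 in pTAMs, against 7.22 in BMDM. The enzymes that free cholesterol from its esters were lower. Lysosomal acid lipase, *Lipa*, was at 9.71 in mTAMs and 8.76 in pTAMs, against 11.66 in BMDM, and the neutral hydrolase *Nceh1* at 9.48 in mTAMs and 8.48 in pTAMs, against 11.71 in BMDM. *Nceh1* was also 2-fold higher in mTAMs than in pTAMs, as was the LXR target *Smpdl3a*. The latter was at 12.19 in mTAMs and 11.08 in pTAMs, against 11.86 in BMDM. *Pltp* and *Lipa* were read from probe sets marked as shared.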

How the data were processed

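Per the labels, total RNA of each population was labelled with biotin and hybridised to 1 Affymetrix mouse array. The authors deposited RMA values on the log2 scale for 45037 probe sets, which RMA corrects for background, quantile-normalizes and summarizes over all arrays jointly. No source used here gives its version. Identical values on the 3 arrays were found for 21.4% of probe sets. Of all probe sets, 34945 had a single symbol in the platform annotation and were used. The members and lists were chosen with earlier results of these data known.

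Genes above 5.3 on at least 1 of the arrays compared were subtracted, and a log2 difference of at least 1 was called 2-fold. Folds against a value below 5.3 were computed against 5.3. With 1 array per group no test was made, and precision is limited by the number of arrays. The named genes were all members, and further pathway genes with a 2-fold difference. Procedures were tested on simulated arrays. Alternatives were 3 rescalings (median-centering, quantile and cyclic loess normalization), averaging every probe set of a gene, probe sets not marked as shared where a gene had one, no floor, a floor 1 log2 unit higher, values raised to the floor, a 3-fold threshold and, added after seeing the data, a floor at the 95th percentile of the receptor values (5.56). Promoter sequences came from RefSeq. Python 3.11.15, numpy 2.4.6, pandas 2.3.3, matplotlib 3.10.9, R 4.3.3 and limma 3.58.1 were used.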

Additional observations from a re-analysis of the deposited data

How the results depend on the processing

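Counts and medians of the members, the sterol enzymes and the LXR group kept their direction wherever a difference was called. Of 141 recomputed values, 133 were within 1.5 times the count or within the spread between probe sets. That spread (0.28 to 0.52) was wider than each median of all members. It was also wider than the enzyme medians, except that of mTAMs against BMDM (−0.71). Such medians could have reached 0 and still counted as within it. Removing the floor or setting it at 5.56 could not move these values, because every member passed both. With every probe set of a gene averaged, 2 members rather than 5 were at least 2-fold lower in mTAMs than in BMDM and 0 rather than 2 in pTAMs, and the LXR median of mTAMs against BMDM was 2.12. This average takes in probe sets below the floor, as for *Fdps* (−0.75 in mTAMs, −0.67 in pTAMs) and *Msmo1* (−0.48 and −0.42). Preferring probe sets not marked as shared left 1 member lower in pTAMs, since *Hsd17b7* was then at −0.64. With a floor 1 log2 unit higher, the LXR median of pTAMs against BMDM was 2.25, because *Nr1h3* was no longer compared. At 3-fold, 0 members were lower in mTAMs and 0 in pTAMs than in BMDM, and 0 were higher in mTAMs than in pTAMs. Of the values of single genes, 183 of 197 differed by less than that spread, but many of them could not differ. Raising values to the floor changed only *Scd1* among these genes, and avoiding shared probe sets only *Hsd17b7*. Averaging could not change *Apoe*, *Mylip* and *Sqle*, which have 1 probe set each. Median-centering shifted all genes alike, by less than that spread. Cyclic loess normalization moved the median of all genes to 0.00, with 1548 genes higher and 1259 lower in mTAMs than in BMDM, against 1368 and 1715 as deposited. The sign of the difference depended on the scaling for 3 of 33 members in mTAMs against BMDM, 3 in pTAMs against BMDM and 4 in mTAMs against pTAMs. Each group was 1 array, so no replicate could be left out, and no paired analysis was possible because each group has 1 array. RMA values near the floor carry little signal over background, which limits *Scd1*, *Nr1h3* and the BMDM value of *Abca1*.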
